A study of Mus musculus with 51 samples.

Results

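The 10 genes described here encode proteins that astrocytes release into the matrix or onto synapses, and they were followed through astrogliogenesis by 2 histone marks. They are the thrombospondins Thbs1 and Thbs2, the matricellular proteins Sparc and Sparcl1 (hevin), the glypicans Gpc4 and Gpc6, tenascin C (Tnc) and the lecticans Ncan (neurocan), Bcan (brevican) and Vcan (versican). The genes were chosen by name, as 10 of 22367 protein-coding genes of the annotation, and every peak of the 6 lists that overlapped a gene body or 10 kb on either side of it was taken. Of the 803595 peaks in the 6 lists, 864 lay in these 10 windows.

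The study differentiated mouse embryonic stem cells (strain background C57/BL-6) into astrogliogenic neural precursor cells and then into astrocytes, and profiled H3K27ac and H3K4me1 by chromatin immunoprecipitation and sequencing at 3 stages. Astrogliogenic neural precursor cells (aNPC) were held in DMEM-F12 with N2 and with EGF and FGF-2 at 10 ng/ml each. Early astrocytes (eA) had spent 1 day, and late astrocytes (lA) 5 days, in DMEM with 1% FBS and LIF. Each stage and mark had 2 biological replicates, which the authors merged before calling peaks without an input control. All groups are cultured cells rather than brain tissue, and none of them carries a knockdown. The merging leaves 1 peak list per stage and mark, so the values below have no replicate error and no test was possible. The lists held 79413, 83433 and 92700 H3K27ac peaks and 154238, 185478 and 208333 H3K4me1 peaks in aNPC, eA and lA, and the read depth behind them is unknown here. In such cultures, fewer cells with a mark and less of the mark per cell cannot be told apart. Of 8 astrocyte marker genes, 5, 5 and 6 had a promoter H3K27ac peak in aNPC, eA and lA, with Gfap, Slc1a3, Slc1a2 and Aldoc marked at every stage, Gja1 in eA and lA, Aqp4 in lA, S100b in aNPC and Aldh1l1 in none. Of 4 progenitor markers 3 had one at every stage, with Olig2 as the exception, and of 3 neuronal markers Tubb3 had one at every stage.

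H3K27ac is found at active promoters and enhancers, and H3K4me1 at enhancers that are active or primed. Thrombospondins are large secreted glycoproteins that promote the formation of excitatory synapses through the receptor Cacna2d1. Hevin also promotes synapse formation, and Sparc opposes it. Glypicans are heparan sulfate proteoglycans, and those shed by astrocytes recruit glutamate receptors to new synapses. Tenascin C is a matrix glycoprotein of radial glia and of reactive astrocytes. Lecticans are chondroitin sulfate proteoglycans that bind hyaluronan and build the perineuronal nets together with link proteins and tenascins.

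Of all peaks outside promoters, the H3K27ac-enriched site with the highest −log10 q of a list was taken for each gene, and 6 of these sites are shown because the stage patterns described below turn on them. Each run gives 200 bp around the summit on the plus strand of mm9, read from the reference genome of that build, and none of these 6 windows overlaps an exon of a protein-coding gene. Capitals mark an exact match to a transcription factor core, and runs without capitals have none of the 5 cores.
Thbs2 site of the lA list (intron), chr17:14808858-14809057: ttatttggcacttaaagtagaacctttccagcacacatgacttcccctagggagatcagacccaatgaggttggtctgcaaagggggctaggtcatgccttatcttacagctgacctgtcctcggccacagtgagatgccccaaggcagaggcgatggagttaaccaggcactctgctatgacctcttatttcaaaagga
Sparc site of the eA list (intron), chr11:55231491-55231690: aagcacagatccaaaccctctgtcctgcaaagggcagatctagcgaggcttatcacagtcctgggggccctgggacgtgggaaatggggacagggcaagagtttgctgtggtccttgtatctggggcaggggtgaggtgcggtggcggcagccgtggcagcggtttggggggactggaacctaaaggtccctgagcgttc
Sparcl1 site of the aNPC list (downstream flank), chr5:104501725-104501924: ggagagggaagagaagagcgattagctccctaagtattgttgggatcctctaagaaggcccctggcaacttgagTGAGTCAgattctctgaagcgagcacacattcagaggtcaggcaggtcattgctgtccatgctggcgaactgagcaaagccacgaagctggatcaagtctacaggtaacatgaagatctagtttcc
Gpc6 site of the eA list (intron), chr14:118360263-118360462: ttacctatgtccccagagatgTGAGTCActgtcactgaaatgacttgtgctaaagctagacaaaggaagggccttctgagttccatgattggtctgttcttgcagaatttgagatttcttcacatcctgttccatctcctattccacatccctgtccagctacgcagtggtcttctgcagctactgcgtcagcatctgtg
Tnc site of the lA list (upstream flank), chr4:63684513-63684712: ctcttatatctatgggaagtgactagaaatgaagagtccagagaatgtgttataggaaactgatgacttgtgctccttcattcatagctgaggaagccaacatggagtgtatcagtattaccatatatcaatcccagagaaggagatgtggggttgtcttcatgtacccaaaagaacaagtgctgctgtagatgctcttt
Bcan site of the lA list (downstream flank), chr3:87789067-87789266: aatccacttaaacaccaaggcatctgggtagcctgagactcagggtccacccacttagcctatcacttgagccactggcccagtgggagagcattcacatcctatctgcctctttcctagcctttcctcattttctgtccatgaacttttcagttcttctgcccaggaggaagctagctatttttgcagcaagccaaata

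The 5 cores, searched on both strands, were the NF1 half-site TGCCAAG, the AP-1 and Atf3 core TGANTCA, the RUNX core TGTGGTT, the Stat3 core TTCCNGGAA and the TEAD core GGAATG, of which the Stat3 and TEAD cores share letters and can overlap. Both matches in the runs above, at Sparcl1 and Gpc6, are TGANTCA matches. This core was found at 7 of 60 distal H3K27ac summits of the 10 genes in aNPC (11.7%), 5 of 74 in eA (6.76%) and 4 of 87 in lA (4.60%). Over the distal H3K27ac summits in the windows of all protein-coding genes the shares were 6.10%, 6.17% and 5.87%. The TEAD core was found at 5 of 60 (8.33%), 9 of 74 (12.2%) and 14 of 87 (16.1%), beside 11.5%, 11.3% and 11.4% over all genes. The RUNX core was found at 2, 4 and 6 summits (3.33%, 5.41% and 6.90%), beside 4.31%, 4.15% and 4.13%. The NF1 half-site was found at 4, 3 and 2 summits (6.67%, 4.05% and 2.30%), beside 4.74%, 4.95% and 4.55%. The Stat3 core had no match in aNPC and eA and 2 in lA (2.30%), beside 0.628%, 0.605% and 0.676% over all genes, and 1 of those 2 lay at an intronic Vcan summit that also held the TEAD core. These shares rest on few summits, and a match describes letters and not a bound factor.

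Most of the 10 genes carried promoter H3K27ac at every stage, and the exceptions were Thbs2, Tnc and, in late astrocytes, Sparcl1. A promoter reached from 1 kb before to 100 bp after the start of a coding transcript. Promoter H3K27ac was found at 8 of 10 genes in aNPC (50.6% of all protein-coding genes), 8 in eA (53.2%) and 7 in lA (48.2%). Promoter H3K4me1 was found at 5 genes in aNPC (55.4% of all), 5 in eA (53.6%) and 6 in lA (52.7%). Thus the count for H3K27ac stood above the share of all genes, and that for H3K4me1 stood at about that share. With 1 kb on either side of any transcript start, the counts were 8, 9 and 8 for H3K27ac (53.2%, 56.1% and 52.5% of all protein-coding genes) and 9, 8 and 9 for H3K4me1 (64.0%, 64.0% and 63.2%), a setting that changes both the width and the set of starts.

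**Figure D1:**
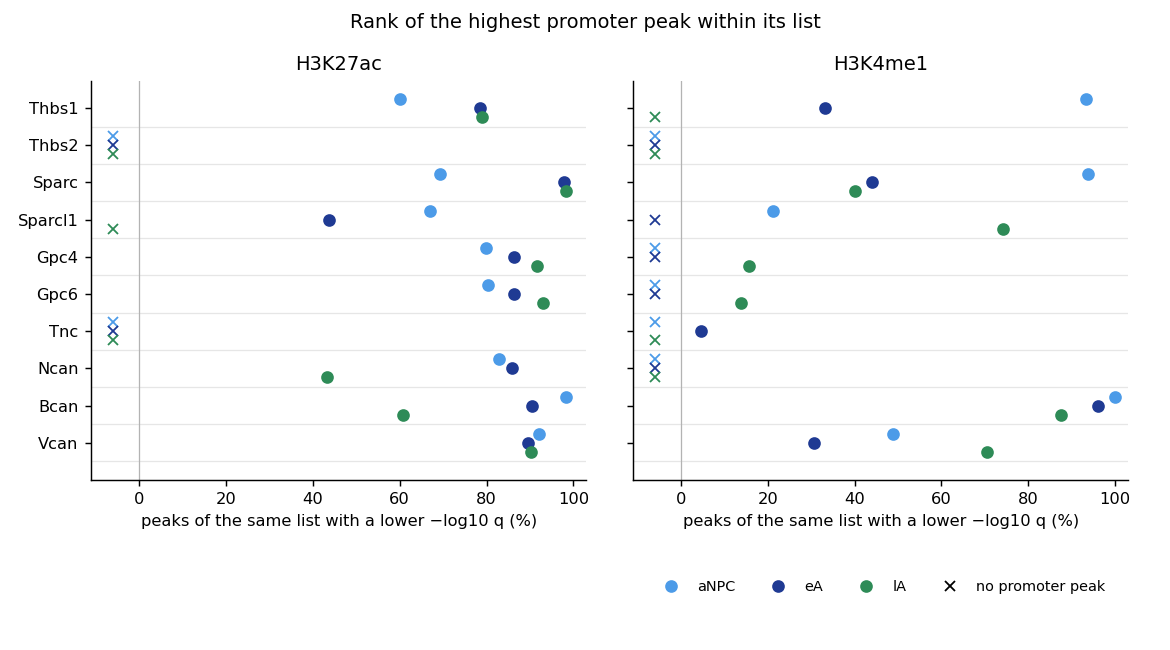
Rank of the highest promoter peak of each gene within its own peak list, as the percentage of peaks of that list with a lower −log10 q (horizontal axis, %), for H3K27ac on the left and H3K4me1 on the right. Points stand for aNPC, eA and lA, and crosses left of 0 mark a list with no promoter peak. The H3K27ac rank of Sparc goes from 69.2% in aNPC to 98.3% in lA, and that of Bcan from 98.3% to 60.8%. The Bcan summit lies inside the gene in aNPC and upstream of the start in lA.

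Since the −log10 q of a peak grows with depth, promoter peaks were placed by rank within their list, given as the percentage of peaks of that list with a lower −log10 q. The lists differ in length, and a list that reaches further down places the same peak higher, so each rank describes a peak within its own list. The promoter peaks of Thbs1, Sparc and both glypicans had a higher rank in eA and lA than in aNPC, also when the longer lists were shortened to the aNPC length (for lA 75.5%, 98.0%, 90.2% and 91.9% in this order of genes). Those of Sparcl1 and Bcan had a lower rank in eA, and in lA the peak of Sparcl1 was gone and those of Ncan and Bcan stood lower than at either earlier stage. In the shortened lA list the ranks of Ncan and Bcan were 33.8% and 54.2%. At Bcan the summit lay inside the gene in aNPC and eA and upstream of the start in lA. The rank of Vcan stayed between 89.6% and 92.0%. The values are those of single merged lists, so whether such differences exceed the spread between replicates was not tested.

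**Figure D2:**
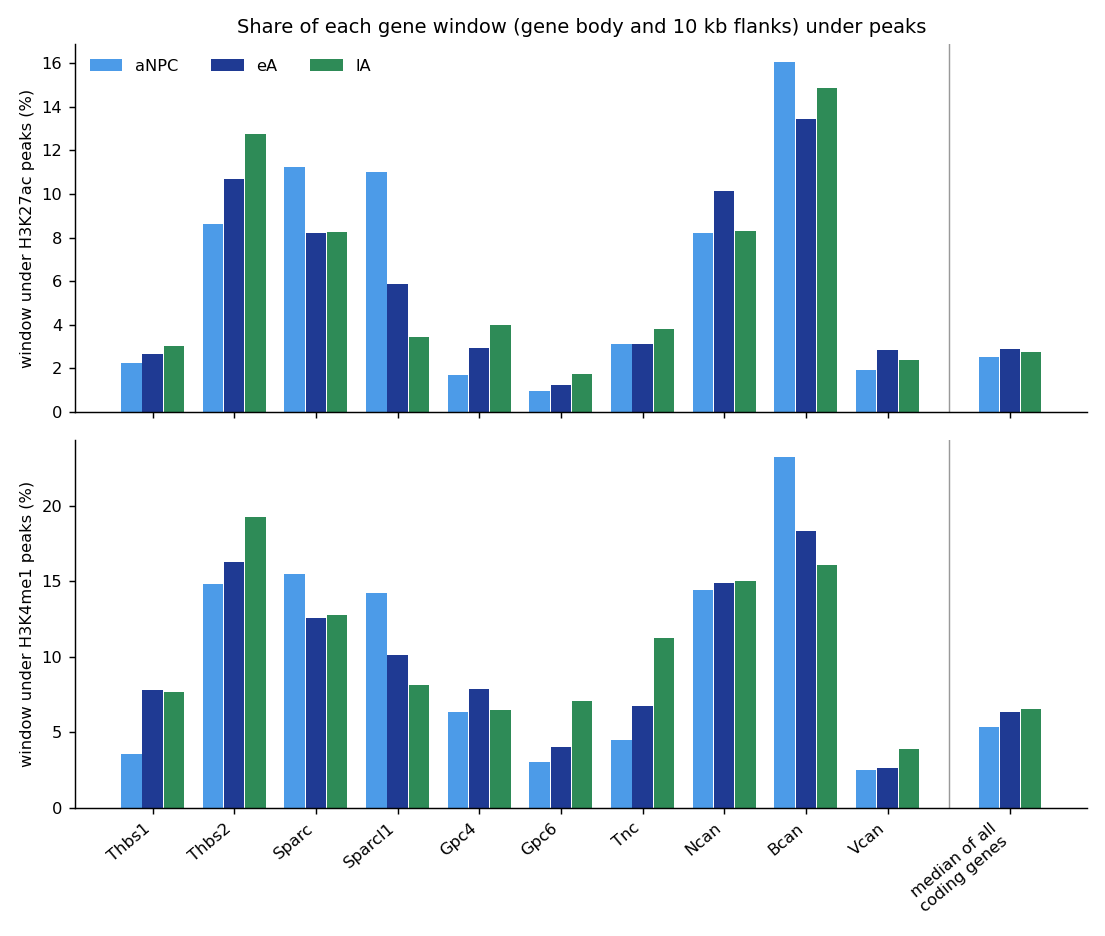
Percentage of each gene window (gene body and 10 kb on either side) that lay under H3K27ac peaks (top) and H3K4me1 peaks (bottom) in aNPC, eA and lA, with the median over all protein-coding genes on the right of the line. Each bar is 1 merged list, so there are no error bars. Bcan has the highest H3K27ac share at every stage, at 16.1%, 13.4% and 14.9%, and Gpc6 the lowest, at 0.976%, 1.24% and 1.75%.

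The median window of these genes was more densely marked than that of all genes, but not every window was. The H3K27ac share was above that of the median protein-coding gene at 6, 7 and 8 of the 10 from aNPC to lA, and the H3K4me1 share at 6, 8 and 8. The median share of a window that H3K27ac covered was 5.66%, 4.47% and 3.90% from aNPC to lA, against 2.53%, 2.90% and 2.74% over all protein-coding genes. For H3K4me1 it was 10.3%, 8.98% and 9.70%, against 5.33%, 6.32% and 6.53%. The spread among the genes was wide, from Bcan, whose aNPC H3K27ac share exceeded that of 98.7% of all protein-coding genes, to Gpc6, whose share exceeded that of 35.4%.

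Thbs1 (ENSMUSG00000040152.8, mm9 chr2:117937612-117952869, plus strand) encodes a synaptogenic thrombospondin that also activates latent transforming growth factor beta. H3K27ac at this gene was confined to the start site and the flank just upstream of it in each of the 3 lists. The gene had 2, 2 and 3 H3K27ac peaks in aNPC, eA and lA, which covered 791, 933 and 1069 bp. The highest promoter peak ranked above 60.1%, 78.5% and 79.0% of its list, with summits 453, 427 and 470 bp upstream of the start site. A second promoter peak, 130 bp downstream of the start in aNPC and 211 bp in eA, had no counterpart in lA, where 2 low peaks lay 1.97 and 1.66 kb upstream.

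H3K4me1 at Thbs1 showed another order. The promoter peak ranked above 93.3% of the list in aNPC and 33.1% in eA (19.5% with the eA list shortened to the aNPC length), and lA had no H3K4me1 peak over the promoter. H3K4me1 was called in 2, 7 and 7 peaks, over 1267, 2754 and 2694 bp. The covered length was thus 2.17 times that of aNPC in eA and 2.13 times in lA. The promoter site at the start held 1 peak in aNPC and 2 in eA. The other additional peaks lay over the gene body and 19.9 kb from the start in the downstream flank. None of these other peaks overlapped H3K27ac.

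Thbs2 (ENSMUSG00000023885.7, mm9 chr17:14802507-14831269, minus strand) had no promoter peak of either mark in any list, and yet it was among the densely marked genes. Its H3K27ac peaks numbered 6, 11 and 11 and covered 4201, 5208 and 6209 bp, and the share of the window in lA exceeded that of 96.3% of all protein-coding genes. The H3K27ac peak nearest to the start site was 2.43 kb away in aNPC, 0.555 kb in eA and 2.18 kb in lA. H3K4me1 lay closer in the aNPC list, where a peak inside the gene had its summit 338 bp from the start. That peak stopped short of the promoter, which ends 100 bp after the start. The closest H3K4me1 summit of the lA list was 947 bp off, and that of the eA list 2134 bp. Its H3K27ac sites were classed as intron or flank, apart from 1 classed as exon in eA. The 200 bp around the summit of its highest aNPC H3K27ac peak, which was classed as intron, nevertheless overlapped an exon of a protein-coding gene.

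Each of the 6 aNPC H3K27ac sites of Thbs2 overlapped H3K27ac peaks of eA and lA, and each also held H3K4me1 in aNPC, eA and lA. One of these sites, 38.7 kb from the start, reached across the edge of the window, and the eA peak there lay just outside the window and is not among the 11. The intronic peak 22.1 to 22.3 kb from the start, whose summit sequence is printed above, ranked above 82.4% of the list in aNPC, 87.2% in eA and 94.3% in lA. Next to it, a peak 21.2 to 21.3 kb from the start ranked above 85.2%, 79.1% and 84.7%. A further 3 sites had H3K27ac in eA and lA but not in aNPC, and 2 of these 3 held H3K4me1 already in aNPC. In the downstream flank, the peak 30.8 to 31.2 kb from the start ranked above only 0.0592% of the peaks in aNPC, against 81.6% in eA and 76.3% for lA. H3K4me1 covered 7217, 7953 and 9375 bp in 14, 14 and 15 peaks.

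**Figure D3:**
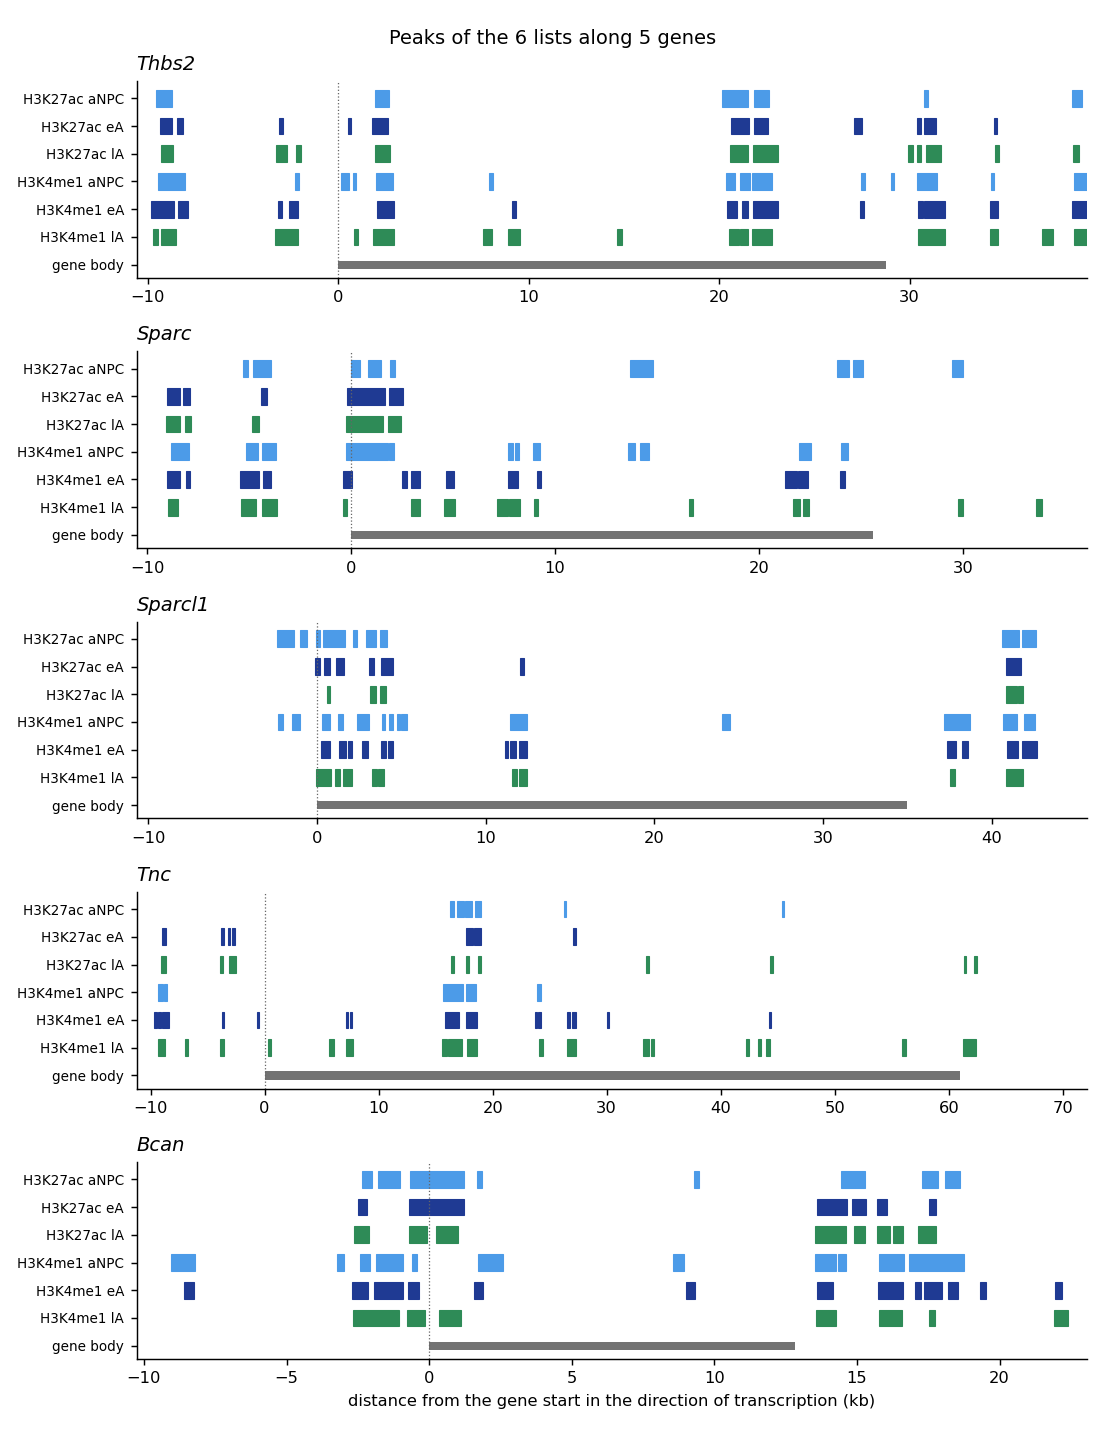
Peaks of the 6 lists along Thbs2, Sparc, Sparcl1, Tnc and Bcan, by distance from the gene start in the direction of transcription (horizontal axis, kb). Each row is 1 list, each block 1 peak to scale and the grey bar the gene body. Thbs2 and Tnc have no H3K27ac block over their start, and at Sparcl1 the blocks around the start number fewer in lA than in aNPC.

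Sparc (ENSMUSG00000018593.6, mm9 chr11:55208002-55233582, minus strand) encodes the secreted protein that opposes the synaptogenic action of hevin. Around its start site the H3K27ac peak covered more bases and ranked higher in astrocytes than in aNPC, while fewer H3K27ac peaks were called over the gene. The promoter peak was 435 bp wide in aNPC, where a second peak of 633 bp lay beside it, and a single peak of 1829 bp in eA and 1774 bp in lA spanned the place of both. The covered length of this site was thus 1068 bp in aNPC. Its rank was above 69.2% of the peaks in aNPC, against 97.9% in eA and 98.3% for lA. An intronic peak, 1.99 to 2.06 kb from the start and shown above by its eA sequence, ranked above 57.6%, 95.01% and 95.4%.

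The number of H3K27ac peaks at Sparc was nonetheless 9 in aNPC and 5 in both eA and lA, over 5132, 3734 and 3771 bp. Of the 10 H3K27ac sites, 5 were found in aNPC alone, and 4 of these lay from the middle of the gene to its downstream flank. One of them, over an exon 24.1 kb from the start, ranked above 87.5% of the aNPC list. Upstream, 2 neighbouring sites up to 8.74 kb from the start had H3K27ac in eA and lA only, and both held H3K4me1 in aNPC. The stronger of these ranked above 84.7% in eA and 93.7% in lA.

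H3K4me1 at the Sparc promoter went the other way from H3K27ac. Its promoter peak was 2065 bp wide and ranked above 93.8% of the list in aNPC, against 449 bp and 44.1% in eA and 237 bp and 40.2% in lA. With lists shortened to the aNPC length these later ranks were 32.8% and 19.2%. The gene had 12, 13 and 14 H3K4me1 peaks over 7057, 5724 and 5819 bp. When each list was cut to an equal number of peaks, the H3K4me1 length in lA was 4288 bp and that of H3K27ac 3418 bp, which put both past 1.5-fold below aNPC.

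Sparcl1 (ENSMUSG00000029309.3, mm9 chr5:104508130-104543107, minus strand) encodes hevin, and it was the member with the largest decrease in covered length. It had 9, 7 and 5 H3K27ac peaks over 6063, 3215 and 1889 bp, so that the length in lA was 0.312 times that in aNPC. The promoter peak ranked above 66.9% of the aNPC list and 43.8% of the eA list, and lA had none, with the nearest summit 670 bp into the gene. All 3 sites with H3K27ac in aNPC alone lay at or within a few kb of the start site.

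The downstream site of Sparcl1 printed above, 41.3 kb from the start, ranked above 98.6% of the aNPC list with the highest −log10 q that this list had in the 10 windows (211). Its counterparts ranked above 63.0% in eA and 73.0% in lA, and H3K4me1 was present there at all 3 stages. All 4 distal sites with H3K27ac at every stage held H3K4me1 at every stage. H3K4me1 as a whole was called in 14, 13 and 9 peaks over 7806, 5567 and 4464 bp, a ratio of 0.572 between lA and aNPC. At the promoter H3K4me1 did not follow this order, with a peak above 21.3% of the list in aNPC and none in eA. In lA a peak of 907 bp ranked above 74.3% (65.2% with the list shortened to the aNPC length). These were peaks of different sites, with the aNPC summit 1070 bp upstream of the start and the lA summit 527 bp into the gene. The site of the lA peak held H3K4me1 at every stage, over 443, 555 and 907 bp from aNPC to lA. Of these only the lA peak reached the promoter, which ends 100 bp after the start. The Sparcl1 window also holds the promoter of Gm17660, and peaks of the window were not divided between the genes.

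Gpc4 (ENSMUSG00000031119.4, mm9 chrX:49406198-49518429, minus strand) encodes a glypican that astrocytes shed. Its H3K27ac covered 2223, 3856 and 5277 bp in 5, 5 and 10 peaks, so that the length in lA was 2.37 times that in aNPC. The promoter peak ranked above 79.9%, 86.3% and 91.6% of its list. Of its 12 H3K27ac sites, 5 were found in lA alone, and all 5 held H3K4me1 in eA, against 2 of the 5 in aNPC. These lA sites lay 3.24, 11.3, 19.7 and 20.2 kb from the start in introns, and beyond the end of the gene.

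H3K4me1 at Gpc4 depended on the part of the list that was used. It was called in 18, 23 and 25 peaks over 8415, 10366 and 8527 bp. When peaks below a −log10 q of 5 were left out, the lengths in aNPC, eA and lA were 7450, 9127 and 4602 bp, and with equally long lists the lA length was 2936 bp. In both of these settings the length was past 1.5-fold lower in lA than in either earlier stage. No H3K4me1 peak lay over the promoter in aNPC or eA, and the lA peak there ranked above 15.8% of its list.

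Gpc6 (ENSMUSG00000058571.4, mm9 chr14:117324519-118378751, plus strand), the other synaptogenic glypican, spans most of a window of 1074 kb and held the largest number of peaks. It had 23, 30 and 36 H3K27ac peaks over 10482, 13349 and 18762 bp. H3K4me1 was called in 64, 79 and 150 peaks over 32658, 43415 and 75715 bp. The ratio of lA to aNPC was 1.79 for H3K27ac and 2.32 for H3K4me1, against medians of 1.00 and 1.13 over all protein-coding genes.

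**Figure D4:**
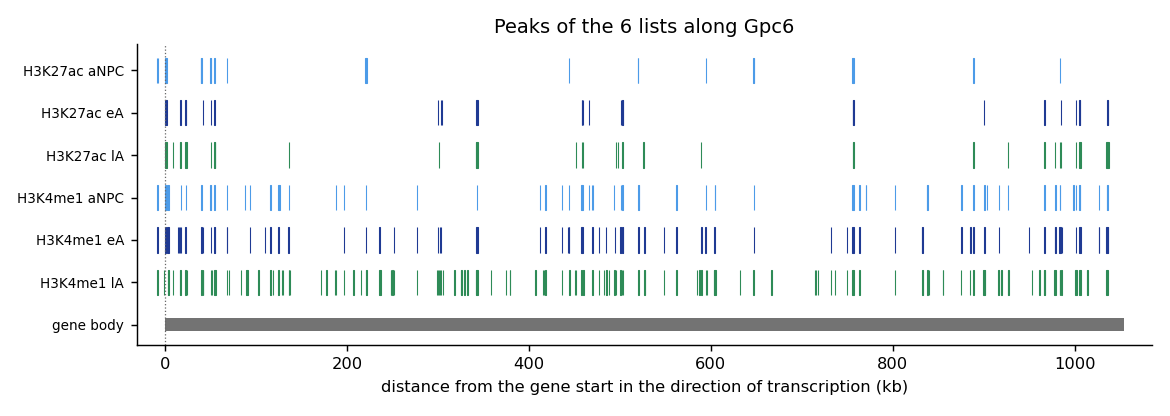
Peaks of the 6 lists along Gpc6 by distance from the gene start in the direction of transcription (horizontal axis, kb), 1 row per list, with the grey bar for the gene body. Marks for narrow peaks are drawn at least 1 line wide. The H3K27ac clusters 343 and 1036 kb from the start are present in eA and lA and absent in aNPC.

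Few H3K27ac sites of Gpc6 were shared by all stages. Of 59 sites in the window, the promoter and the flanks included, 16 were found in aNPC alone, 15 in both eA and lA, 14 in lA alone, 7 in eA alone and 4 at every stage. The 16 sites are 27.1% of the 59 and the 4 are 6.78%, beside 18.9% and 30.2% of the H3K27ac sites in the windows of all protein-coding genes. Among the 15 sites of eA and lA, 13 held H3K4me1 in aNPC, before H3K27ac was called there. Among the 14 sites of lA alone, 2 held H3K4me1 in aNPC, 6 in eA and 12 in lA. Of the 16 sites of aNPC alone, 13 held H3K4me1 in aNPC, 13 did so in eA and 12 in lA.

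The Gpc6 site printed above, 1036 kb from the start, ranked above 84.1% of the eA peaks and 87.2% in lA. It had no H3K27ac peak in aNPC, while the H3K4me1 peak there was the highest of the gene in aNPC (−log10 q of 44.2) and again in lA (35.4). The site 343 kb from the start ranked above 77.3% of the eA peaks and 90.5% in lA, and it too had H3K4me1 without H3K27ac in aNPC. The promoter H3K27ac peak, 2467, 2460 and 2390 bp wide, ranked above 80.4%, 86.4% and 93.1%. Both glypicans thus had promoter H3K27ac at every stage, while H3K4me1 reached the promoter, which ends 100 bp after the start, in lA alone. Further into the gene the order was another, since H3K4me1 sites centred 519 and 921 bp after the nearest start of Gpc4 were found in aNPC alone, and one centred 552 bp after that of Gpc6 in aNPC and eA. The lA promoter H3K4me1 peaks were weak, with a −log10 q of 4.65 at Gpc4 and 4.35 at Gpc6, and leaving out peaks below 5 removed both, after which 4 members had promoter H3K4me1 in lA (49.4% of all protein-coding genes).

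Tnc (ENSMUSG00000028364.8, mm9 chr4:63620819-63681760, minus strand) had no H3K27ac peak over its promoter in any list. The nearest summit lay 16.5 kb away in aNPC, inside the gene, and 2.81 kb upstream in eA and 2.85 kb upstream in lA. In aNPC 4 of its 6 H3K27ac peaks lay in an intronic cluster 16.5 to 18.8 kb from the start, where the highest peak ranked above 93.1% of the list. At the same place the peak ranked above 63.4% in eA and 31.8% in lA. H3K4me1 was present in this cluster at all 3 stages, and its peak 16.4 kb from the start ranked above 93.6% in aNPC and 94.5% in lA. The highest H3K4me1 −log10 q of the gene was 37.3, 16.8 and 27.2 from aNPC to lA, values that also depend on depth.

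The upstream flank of Tnc showed the opposite stage order. The site 2.8 kb upstream, printed above, had no H3K27ac in aNPC and no H3K4me1 peak in any list. In eA 2 narrow H3K27ac peaks there ranked above 11.7% and 41.3% of the list, and in lA a single peak over both ranked above 83.7%. A site 8.9 kb upstream ranked above 51.0% in eA and 62.0% in lA, and it held H3K4me1 in aNPC, eA and lA. The total H3K27ac length was 2530, 2505 and 3082 bp in 6, 7 and 10 peaks, so that the totals differed less than the intron and the flank taken alone.

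H3K4me1 at Tnc covered 3639, 5484 and 9128 bp in 5, 15 and 18 peaks, a ratio of 2.51 between lA and aNPC. The steps from aNPC to eA (1.51 times) and from eA to lA (1.66 times) were both past 1.5-fold in the whole lists. With equally long lists the lengths were 3639, 4465 and 6552 bp and neither step was.

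Ncan (ENSMUSG00000002341.8, mm9 chr8:72616984-72644772, minus strand) encodes neurocan, a lectican of the developing nervous system. Its promoter H3K27ac peak was narrower at each later stage, at 1901, 1187 and 704 bp, and in eA a second peak in the same place brought the covered length to 1617 bp. The peak ranked above 82.8%, 85.8% and 43.3% of its list. The number of H3K27ac peaks was 2, 10 and 5 over 3916, 4834 and 3976 bp. The covered length of the window thus differed by less than 1.5-fold between any pair of stages. Of these lengths, 2015, 1862 and 1868 bp lay at a site that includes the promoter of the neighbouring gene Nr2c2ap. The totals therefore describe the window and not Ncan alone.

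A site in the downstream flank of Ncan, 30.6 to 30.9 kb from the start, held H3K4me1 that ranked above 99.8% of the peaks in aNPC, against 90.5% in eA and 91.6% for lA. H3K27ac was called there in eA and lA only, above 30.2% and 23.1% of the lists. H3K4me1 covered 6909, 7126 and 7175 bp in 7, 8 and 7 peaks, with none over the promoter. Just short of the promoter, however, an H3K4me1 site inside the gene covered 2140, 2191 and 2276 bp from aNPC to lA. The nearest H3K4me1 summit lay 2347, 1637 and 407 bp from the start. The window also holds the promoters of Hapln4 and Nr2c2ap, and the Nr2c2ap promoter carried the highest H3K27ac peak of the window in aNPC and eA. The upstream site 8.03 to 8.16 kb from the Ncan start lies next to that promoter and ranked above 81.3% in eA and 94.7% in lA. In aNPC a single H3K27ac peak of 2015 bp overlapped both this site and that promoter.

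Bcan (ENSMUSG00000004892.8, mm9 chr3:87791453-87804278, minus strand) encodes brevican, a lectican made by astrocytes in the maturing brain. It was the most densely marked of the 10 genes in both aNPC lists, with 16.1% of its window under H3K27ac and 23.2% under H3K4me1. Its promoter H3K27ac peak was 1905, 1917 and 627 bp wide from aNPC to lA, where a second peak further into the gene brought the covered length of the same site to 1402 bp. The rank of the peak over the promoter was above 98.3%, 90.5% and 60.8% of its list, the opposite order from that of Sparc. Its summit lay 800 and 464 bp into the gene in aNPC and eA, but 354 bp upstream of the start in lA. These ranks therefore compare different parts of the same site.

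Downstream of Bcan the sites differed in their order. The site 15.1 kb from the start, printed above, ranked above 81.1%, 93.4% and 98.1% of the H3K27ac lists from aNPC to lA. The eA and lA peaks at this site overlapped no H3K4me1 peak of any list, while the wider aNPC peak overlapped one of aNPC. The neighbouring peak 13.8 to 14.5 kb from the start ranked above 80.2% in eA and 91.7% in lA. The strongest distal H3K27ac peak of aNPC, 17.6 to 17.7 kb from the start, had instead the highest rank in aNPC, at 87.9% against 55.5% in eA and 78.3% for lA. A further site 18.4 kb from the start had H3K27ac in aNPC alone. The H3K27ac length over the whole window was 5278, 4415 and 4883 bp in 8, 6 and 8 peaks. H3K4me1 was 7617, 6015 and 5282 bp in 11, 13 and 7 peaks, and the peak 1.19 kb upstream of the start ranked above 99.9% of the aNPC list.

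Vcan (ENSMUSG00000021614.9, mm9 chr13:89794915-89882117, minus strand) encodes versican, a lectican with several splice forms. It was the member with the fewest H3K27ac sites outside its promoters. All of its H3K27ac summits lay within 3 kb of the gene start, at 2 sites that were present at every stage, and the highest promoter peak ranked above 92.0%, 89.6% and 90.2% of its list. The covered length was 2086, 3036 and 2558 bp in 3, 2 and 4 peaks. H3K4me1 went from 2661 and 2859 bp to 4185 bp in 6, 8 and 11 peaks, past 1.5-fold in lA against aNPC, but when peaks below a −log10 q of 5 were left out the lengths in aNPC and lA were 2313 and 2572 bp.

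Counted over the 10 genes, differences in covered length past 1.5-fold were few and went both ways for H3K27ac, and for H3K4me1 their direction depended on the length of the lists. H3K27ac was higher in eA than in aNPC at 1 gene (24.8% of all protein-coding genes with peaks at either stage) and lower at 1 (14.9%). Between eA and lA it was higher at none (12.7%) and lower at 1 (17.5%). In lA against aNPC it was higher at Gpc4 and Gpc6 (24.1%) and lower at Sparcl1 (20.6%). None of these counts stood clear of the share over all genes.

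H3K4me1 was higher in eA than in aNPC at Thbs1 and Tnc (16.1% of all with peaks at either stage) and lower at no member (2.96%). It was higher in lA than in eA at Gpc6 and Tnc (10.6%) and lower at no member (7.78%). In lA against aNPC it was higher at 4 of 10 genes, Thbs1, Gpc6, Tnc and Vcan (24.3%), and lower at Sparcl1 (6.53%). With equally long lists this last comparison gave 3 higher (16.7%) and 4 lower members (12.0%), so that the shares over all genes moved in the same directions. The median ratio of lA to aNPC over the 10 genes was 1.22 for H3K27ac and 1.17 for H3K4me1, beside 1.00 and 1.13 over all genes.

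**Figure D5:**
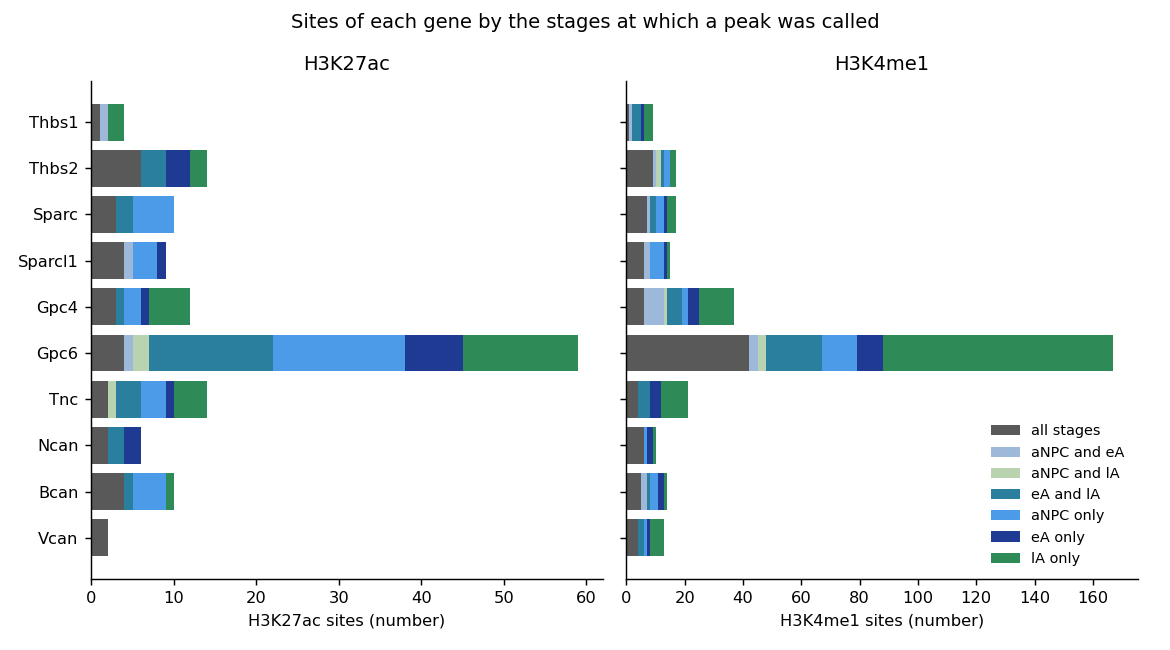
Number of H3K27ac sites (left) and H3K4me1 sites (right) of each gene by the stages whose lists held a peak there, where overlapping peaks of the 3 lists of a mark were merged into 1 site (the 2 horizontal axes differ in scale). Thbs1, Thbs2, Ncan and Vcan have no site of aNPC alone for H3K27ac, while 5 of the 10 sites of Sparc are of this kind. Of the 167 H3K4me1 sites of Gpc6, 79 are found in lA alone.

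The peaks of the 3 H3K27ac lists merged into 140 sites, of which 31 were present at every stage, 33 in aNPC alone, 27 in eA and lA, 28 in lA alone, 15 in eA alone and 3 in each of the other combinations. Among the 88691 H3K27ac sites in the windows of all protein-coding genes, 30.2% were present at every stage, 18.9% in aNPC alone, 13.6% in eA and lA, 16.6% in lA alone and 12.4% in eA alone, against 22.1%, 23.6%, 19.3%, 20% and 10.7% of the 140. The sites of lA alone numbered 10 when peaks below a −log10 q of 5 were left out, 16 with equally long lists and 17 when sites within 500 bp were merged, and the last rule left 15 of aNPC alone. Without Gpc6 the other 9 genes had 81 sites, of which 27 were present at every stage (33.3%), 17 in aNPC alone (21.0%), 12 in eA and lA (14.8%) and 14 in lA alone (17.3%). Sites shared by all stages were thus the largest class in those 9 genes, and a minor class in Gpc6. The total of H3K27ac peaks was 73, 85 and 97 in aNPC, eA and lA (50, 55 and 61 without Gpc6), and that of H3K4me1 153, 193 and 263 (89, 114 and 113 without Gpc6). The greater H3K4me1 total of lA over eA therefore came from Gpc6. The order of the H3K27ac totals depended on the weak peaks, since without those below a −log10 q of 5 the totals were 60, 71 and 66, and with equally long lists 73, 81 and 77. For H3K4me1 the equally long lists gave 153, 150 and 183.

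Most distal H3K27ac peaks of these genes lay in H3K4me1 of the same stage. The share in aNPC was 52 of 60 (86.7%, 95% Wilson interval 75.8 to 93.1%), 61 of 74 in eA (82.4%, 72.2 to 89.4%) and 72 of 87 in lA (82.8%, 73.5 to 89.3%). Over the windows of all protein-coding genes it was 83.7%, 87.1% and 84.6%, inside each of these intervals, which cover counting error only. Of the distal peaks that were present in eA but not in aNPC, 29 of 46 already held H3K4me1 in aNPC (63.0%, 48.6 to 75.5%), beside 62.2% over all genes. Of those present in lA but not in eA, 19 of 33 held H3K4me1 in eA (57.6%, 40.8 to 72.8%), beside 67.6%.

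H3K4me1 of the later stage was also often called where H3K27ac of the earlier stage was not followed by H3K27ac. Of the distal H3K27ac peaks of aNPC without H3K27ac in eA, 26 of 36 held H3K4me1 in eA (72.2%, 56.0 to 84.2%), beside 68.9% over all genes. When the H3K27ac summit had to lie inside the H3K4me1 peak, the share in the 10 genes was 47.2%. No share over all genes is given for that stricter rule, so 47.2% and 68.9% are not comparable. Of those of eA without H3K27ac in lA, 12 of 19 held H3K4me1 in lA (63.2%, 41.0 to 80.9%), beside 70.5%. In each case the value over all genes lay within the interval of the 10 genes. Among the 9 genes other than Gpc6 the 4 shares of appearing and lost peaks were 54.5%, 64.7%, 61.1% and 63.6%.

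The partners of these proteins were read from a list of 36 related genes. Promoter H3K27ac was found at 15, 20 and 15 of the 36 in aNPC, eA and lA (50.6%, 53.2% and 48.2% of all protein-coding genes), and promoter H3K4me1 at 22, 22 and 21 (55.4%, 53.6% and 52.7%). All 5 receptors had promoter H3K27ac at every stage, namely Cacna2d1 (thrombospondin receptor), Cd47, Lrp1, Ptprd and Ptprs, and so had all 3 lectican proteases Adamts1, Adamts4 and Adamts5. None of the 4 link proteins, the 3 hyaluronan synthases or the other 3 tenascins had promoter H3K27ac at any stage, and the lectican Acan (aggrecan) had no H3K27ac peak in its window at all.

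Among the related genes, 7 of 36 had a greater H3K27ac length in lA than in aNPC past 1.5-fold and 13 a smaller one. These are 21.2% and 39.4% of the 33 with H3K27ac at either stage, beside 24.1% and 20.6% of all protein-coding genes with peaks at either stage. For H3K4me1 6 of the 36 had a greater (16.7%, beside 24.3%) and 1 a smaller length (2.78%, beside 6.53%). Chrdl1, another astrocyte-secreted synapse factor, was past 1.5-fold higher at each step and for both marks, with 178, 2212 and 3808 bp of H3K27ac and 2240, 4430 and 7580 bp of H3K4me1. Cacna2d1 went the other way for H3K27ac, with 14227, 5602 and 7938 bp. Tnr, the tenascin that binds lecticans in perineuronal nets, had 7927, 2626 and 2969 bp of H3K27ac.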

How the data were processed

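H3K27ac and H3K4me1 were profiled in 12 samples, 2 per stage and mark, of the 51 in the series. The authors aligned reads uniquely to mm9 with Bowtie, merged replicates with SAMtools and called peaks with MACS2 at default settings without an input control. The deposited lists give peak positions, the −log10 of the q-value and the summit, per the file headers and the values. RNA-seq and knockdown libraries were not used here, and 8 RNA-seq samples with conflicting labels were left unassigned. From these lists, peaks overlapping a member by at least 1 bp (GENCODE annotation of mm9, gene body and 10 kb on either side) were classed and merged into sites. Covered length is the number of bases under peaks, called different past 1.5-fold. All peaks lay inside the mm9 chromosomes. The members, gene lists and cores were chosen with earlier results of these data known, and the genes named with full values are all 10 members, with the highest distal H3K27ac peak of each list. The scripts (Python 3.11.15, NumPy 2.4.6, pysam 0.24.0) were tested on simulated data. Read depth is unknown, so the −log10 q of a peak was read as a rank within its list. Ranks set side by side between lists also depend on how long each list is, and 1 alternative applied a single minimum to all lists. The alternatives were a −log10 q of at least 5, equal peak numbers per list, the gene body only, other promoter, fold, merging and overlap rules, and, chosen after seeing the data, leaving out Gpc6 and ranking promoter peaks in lists of equal length.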

Additional observations from a re-analysis of the deposited data

How the results depend on the processing

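No paired analysis was possible because the 2 replicates of each stage and mark were merged into 1 list, and no replicate could be left out for the same reason. With the gene bodies alone, the lA H3K27ac windows held 64 peaks. Without Gpc6, a choice made after seeing the data, the H3K27ac totals were 55 in eA and 61 in lA, the H3K4me1 totals 89, 114 and 113 in aNPC, eA and lA, and the H3K27ac sites of a single stage 17, 8 and 14. With promoters of 1 kb before and after all start sites, promoter H3K4me1 was found at 9 members in aNPC and 8 in eA (64.0% of all protein-coding genes at each stage). For covered length, the share of all protein-coding genes with peaks at either stage under the same rule is given in brackets. With a −log10 q of at least 5, H3K27ac length was higher in eA than aNPC at 2 members (24.5%). H3K4me1 was higher in eA than aNPC at 1 (15.5%), lower in lA than eA at 1 (8.44%) and lower in lA than aNPC at 2 (7.69%). Under this rule 10 H3K27ac sites were of lA alone. With equal peak numbers, H3K27ac was lower in lA than aNPC at 2 members (23.1%), and 16 H3K27ac sites were of lA alone. H3K4me1 was then higher in eA than aNPC at 1 (11.4%) and higher in lA than eA at 1 (9.32%). It was lower in lA than eA at 1 (11.5%) and lower in lA than aNPC at 4 (12.0%). At 2-fold, H3K27ac was higher in eA than aNPC at 0 members (14.7%) and lower in eA than aNPC at 0 (9.31%). It was lower in lA than eA at 0 (9.27%) and higher in lA than aNPC at 1 (16.1%). H3K4me1 at 2-fold was higher in eA than aNPC at 1 (6.46%), higher in lA than eA at 0 (5.13%) and lower in lA than aNPC at 0 (3.4%). With peaks merged within 500 bp, 15 H3K27ac sites were of aNPC alone and 17 of lA alone. With the H3K27ac summit required inside the H3K4me1 peak, the share was 66.7% for distal aNPC peaks and 47.2% for aNPC peaks lost in eA. The causes of these differences were not tested beyond what each rule fixes by construction. Every list is a single merged call of unknown depth, so no value here has a replicate error, and a peak absent from a list was not called at that depth rather than shown to be absent. Peaks were given to genes by distance alone.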
